A study of Mus musculus with 14 samples.

Results

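RNA levels of 10 genes of the Notch pathway were followed in mouse embryonic stem cells (ESCs) with and without the transcription factor Foxa2. The genes were taken by name from the pathway, with earlier results of these data known, and comprise 4 ligands (Dll1, Dll3, Dll4 and Jag1), 3 receptors (Notch1, Notch2 and Notch3) and 3 targets (Hes1, Hey1 and Hey2). All 10 were found among the 24054 genes of each table. The 14 libraries formed 6 groups. Those named d0con (2 libraries) and d3con (3 libraries) carried Foxa2-Venus-KO on 1 allele (Foxa2-Venus-KO/+), in which the fluorescent reporter H2B-Venus takes the place of the Foxa2 coding region. Those named d0ko (2 libraries) and d3ko (3 libraries) carried it on both alleles (Foxa2-Venus-KO/Foxa2-Venus-KO), so that control and mutant cells alike had at least 1 reporter allele. All were derived from the ESC line IDG3.2. Day 0 cells were sorted as negative for the red fluorescence of their fibroblast feeders. Day 3 cells had spent 3 days on Wnt3a-secreting feeders and in Activin A at 12 ng/ml, and were sorted as Venus-positive. The last 4 libraries came from the separate TetON-Foxa2-Venus ESC line T119, made by lentiviral transduction of Sox17-Cherry homozygous ESCs, kept without feeders in serum and LIF and given 40 ng/ml doxycycline for 48 hours. Its Venus-negative cells are d2-FVFn (2 libraries) and its Venus-positive cells d2-FVFp (2 libraries).

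Each genotype was represented by 2 clones. By the sample list of the study, replicates 1 and 3 at day 3 came from the same clone and replicate 2 from another, and the day 0 libraries 1 and 2 came from these same clones. The p-values therefore measure the spread between these libraries and clones. Day and sorting gate changed together, and so their effects cannot be told apart.

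In the Notch pathway, a ligand on 1 cell binds a receptor on its neighbour. The receptor is then cut by an Adam protease and by gamma-secretase, and its freed intracellular part enters the nucleus, where it joins the DNA-binding protein Rbpj and a Mastermind coactivator to switch on targets. The best known targets are Hes and Hey genes, which code for basic helix-loop-helix repressors. In the early embryo the pathway is known for the segmentation of paraxial mesoderm and for choices of fate between neighbouring cells.

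The libraries held 14142788 to 27278237 expected counts, which are the reads assigned to genes. Levels are given as TPM, each gene's share of all transcripts after correction for gene length, so that levels of different genes can be set side by side. Foxa2 itself stood at 34.8 to 58.6 TPM in d3con, at 0.07 to 0.19 TPM in d0con, d0ko and d3ko, at 2.01 and 2.99 TPM in d2-FVFn and at 159.81 and 168.57 TPM in d2-FVFp. Summed TPM of 6 endoderm markers was 760.23 to 1277.5 in d3con, 28.99 to 141.34 in d3ko and at most 18.73 elsewhere. The summed TPM of 6 pluripotency markers was 15430.64, 2668.05 and 17364.01 in d3ko replicates 1, 2 and 3, against 13786.6 to 15663.05 at day 0 and 561.54 to 984.81 in d3con. Replicate 2, from the other clone, thus stood apart, and values without it are given where a call depends on it. The tables show 75-base reads for replicate 1 of d3con and of d3ko and 50-base reads for the rest.

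The genes lie on 6 autosomes (RefSeq annotation of GRCm38.p6). Notch1 (chr2:26457902-26503822), Dll4 (chr2:119325784-119335666) and Jag1 (chr2:137081451-137116520) share chromosome 2 with Foxa2. Hey1 (chr3:8663359-8667038) and Notch2 (chr3:98013538-98150367) are on chromosome 3, Dll3 (chr7:28293555-28301785) on chromosome 7, Hey2 (chr10:30832359-30842783) on chromosome 10 and Hes1 (chr16:30065357-30067796) on chromosome 16. Dll1 (chr17:15367354-15376932) and Notch3 (chr17:32120820-32166896) are on chromosome 17. Dll1, Dll3, Jag1 and Hes1 overlap no other annotated gene. The other 6 members do, Hey1 with the protein-coding model LOC115489673 and the rest with non-coding models. The library kit does not mark the strand, so reads in the overlaps cannot be told apart.

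RefSeq promoter windows (GRCm38.p6, around the start of transcription) were at hand for 8 of the 10 members, all but Hes1 and Hey1, and Dll1 has a pair of them. The hexamer TGGGAA, the core of the site that Rbpj binds, was searched on both strands, and TTCCCA is its reverse complement. It was found in 25.6% of all 32851 windows and in 1 of the 9 member windows, that of Hey2. The E box CACGTG, which basic helix-loop-helix repressors can bind, stood in 7.15% of all windows and in 0 of the 9. The forkhead motif TGTTTAC, read on both strands, stood in 3.65% of all windows and also in 0 of the 9. The first 253 bases of the Hey2 window (chr10:30842781-30843033, minus strand) are shown because they hold both copies of the hexamer, here in capitals. These begin at -207 and at -3 counted from the start of transcription. The first 250 bases of the Notch3 window (chr17:32166891-32167140, minus strand) are shown for comparison, since Notch3 was the most abundant receptor. The windows searched run on past the stretches printed here, and the whole Notch3 window holds none of the 3 motifs.
Hey2: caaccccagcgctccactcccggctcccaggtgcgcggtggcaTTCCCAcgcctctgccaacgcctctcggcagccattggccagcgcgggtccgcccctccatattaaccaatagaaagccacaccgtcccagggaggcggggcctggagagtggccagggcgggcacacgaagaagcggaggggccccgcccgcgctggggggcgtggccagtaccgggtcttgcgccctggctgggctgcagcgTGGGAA
Notch3: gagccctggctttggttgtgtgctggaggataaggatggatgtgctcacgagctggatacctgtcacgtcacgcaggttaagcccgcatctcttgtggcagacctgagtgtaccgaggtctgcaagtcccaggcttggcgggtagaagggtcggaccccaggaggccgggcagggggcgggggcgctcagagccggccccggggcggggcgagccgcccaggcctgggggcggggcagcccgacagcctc

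At day 0 the pathway genes were at low to moderate levels and the genotypes were alike in the order of their levels. Orders are given within the 10 members, which leave out the ligand Jag2 (5.45 TPM ± 1.13 in d0con) and the receptor Notch4 (3.04 ± 0.559, n = 2). Among the targets of d0con, Hes1 was first with 13.9 TPM ± 3.39 (SD, n = 2), followed by Hey1 with 2.73 ± 0.651 and Hey2 with 0.44 ± 0.0849. Among the receptors, Notch3 came first with 8.81 ± 1.13, then Notch1 with 4.02 ± 0.453 and Notch2 with 2.06 ± 0.148. The ligands followed as Jag1 with 4.81 ± 0.488, Dll3 with 3.59 ± 0.247 and Dll1 with 1.52 ± 0.212. In d0con and in d0ko no library of a gene reached the range of the next gene in these orders. Dll4, a ligand known from arterial vessels, was near 0 TPM in all 14 libraries, with 0 to 0.32 TPM and 0 to 13 expected counts per library, and was too low to be tested.

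**Figure D1:**
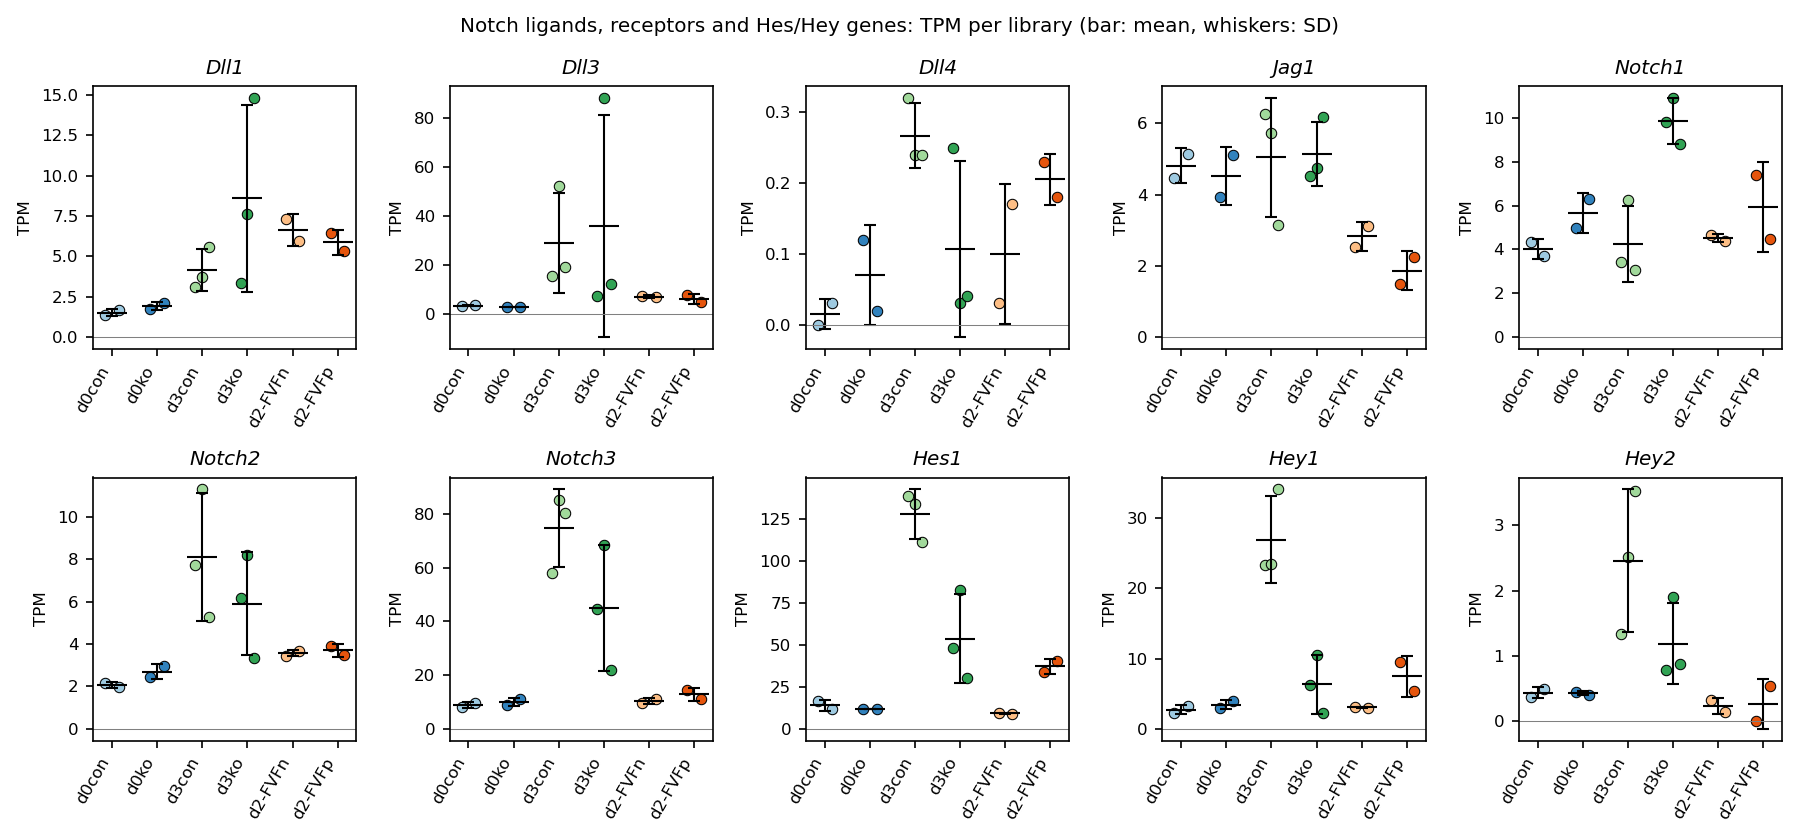
TPM of the 10 Notch pathway genes (1 panel each, linear axes that differ between panels) in each library of the 6 groups; points are libraries and bars are the group mean ± SD. Hes1 and Hey1 were highest in the 3 d3con libraries, Notch1 was highest in the 3 d3ko libraries, and Dll3 was highest in replicate 2 of both day 3 groups.

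The comparison of d3con with d0con asks what changed as control cells took the path to endoderm. A gene was called when edgeR's quasi-likelihood test gave an adjusted p under 0.05 and the log2 fold change exceeded 1 in size. Values after ± beside a log2 fold change are its standard error. Of 9 members tested, 6 were called higher (Dll3, Notch2, Notch3, Hes1, Hey1 and Hey2) and 0 lower, where 20.6% of the 13899 genes tested were called higher and 14.6% lower. Hey2 was under 1 CPM (a count scaled to the library total), the minimum for a test, in both d0con libraries. It was tested only through its day 3 level and so had to come out higher. Of the other 8 members 5 were called higher, with a median log2 fold change of 2.29, beside 0.07 over all genes tested.

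Hes1 and Hey1 had the largest differences of the members. Hes1, a repressor known for its oscillating expression, stood at 16.26 and 11.46 TPM in the d0con libraries and at 138.94, 133.9 and 111.26 TPM in the d3con libraries. The groups lay far apart, and the d3con libraries were close to each other. The log2 fold change was 3.00 ± 0.40 (edgeR adjusted p = 0.00056). Hey1, known from the developing heart and vessels, went from 2.27 and 3.19 TPM to 23.29, 23.42 and 34.1 TPM. Its groups did not overlap either, and the log2 fold change was 3.09 ± 0.59 (edgeR adjusted p = 0.0026). Hey2, its close relative, was lower throughout, with 0.38 and 0.5 TPM (11 and 13 expected counts) in d0con and 1.34, 2.51 and 3.52 TPM in d3con. Each d3con library lay above both d0con libraries, with a log2 fold change of 2.25 ± 0.59 (edgeR adjusted p = 0.0116). That call was lost without d0con replicate 1 (adjusted p = 0.0901) or d0con replicate 2 (adjusted p = 0.0581).

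Among the receptors Notch3 rose most. It stood at 8.01 and 9.61 TPM in d0con and at 58.08, 85.35 and 80.37 TPM in d3con, with no overlap and a log2 fold change of 2.87 ± 0.42 (edgeR adjusted p = 0.000822). Notch2 stood at 2.16 and 1.95 TPM in d0con and at 7.75, 11.31 and 5.29 TPM in d3con, again with no overlap. Its log2 fold change was 1.79 ± 0.41 (edgeR adjusted p = 0.0065), and the call was lost without d0con replicate 2 (adjusted p = 0.0533). Notch1, known from somites and blood stem cells, was not called. Its 3.43, 6.25 and 3.06 TPM in d3con overlapped the 4.34 and 3.7 TPM of d0con (log2 fold change -0.13 ± 0.28, edgeR adjusted p = 0.726).

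The ligands were mixed. Dll3, a divergent ligand that inhibits the receptors of its own cell and does not activate those of a neighbour, stood at 3.41 and 3.76 TPM in d0con and at 15.46, 52.22 and 19.27 TPM in d3con. All d3con libraries were above both d0con libraries, but replicate 2 was far above the other two. The log2 fold change was 2.80 ± 1.03 (edgeR adjusted p = 0.0460). This call was lost without d0con replicate 1, d0con replicate 2, d3con replicate 2 or d3con replicate 3, with adjusted p-values of 0.183, 0.165, 0.116 and 0.0589. Dll1, the ligand of the segmentation clock, stood at 1.37 and 1.67 TPM in d0con and at 3.1, 3.75 and 5.61 TPM in d3con. These did not overlap, but the log2 fold change of 1.23 ± 0.55 did not pass the test (edgeR adjusted p = 0.0848). It passed when only d0con and d3con were fitted (adjusted p = 0.0230) and without the 75-base libraries (adjusted p = 0.0297). Jag1, a Serrate-type ligand, overlapped between the days, with 4.46 and 5.15 TPM in d0con and 6.26, 5.73 and 3.15 TPM in d3con (log2 fold change -0.11 ± 0.33, edgeR adjusted p = 0.784).

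The makeup of each class of genes differed as well, taken over the 4 ligands and 3 receptors among the members. Notch3 made up 55.2% and 63% of the summed receptor TPM in d0con and 83.9%, 82.9% and 90.6% in d3con. With Notch4 added to the sum its share was 44.6% and 53.7% in d0con and 82.4% to 90.1% in d3con. Notch1 made up 29.9% and 24.2% of it in d0con and 4.95%, 6.07% and 3.45% in d3con. Dll3 made up 36.9% and 35.4% of the summed ligand TPM in d0con and 61.5%, 84.3% and 68.2% in d3con. Jag1, with 48.3% and 48.5%, had been the most abundant of these ligands in d0con, where Jag2, outside this sum, stood at 4.65 and 6.25 TPM. In d3con the order among ligands was thus Dll3, then Jag1 and Dll1, whose libraries overlapped. Among receptors it was Notch3, then Notch2 and Notch1. The ranges of Notch2 and Notch1 also overlapped, but Notch2 stood above Notch1 within each d3con library. The other 2 targets kept their place behind Hes1 with no overlap.

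**Figure D2:**
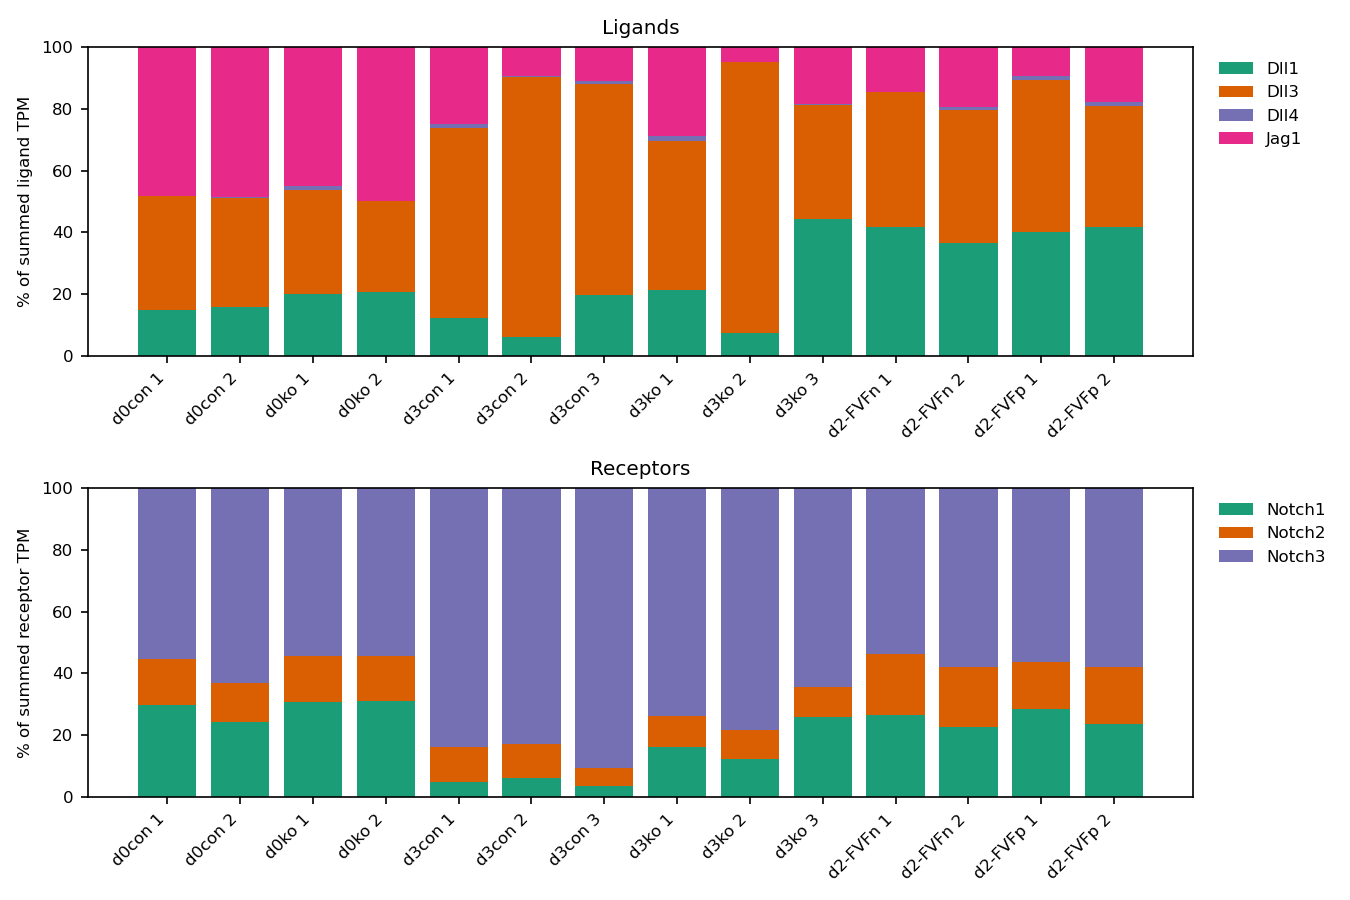
Percent of the summed ligand TPM (top) and of the summed receptor TPM (bottom) taken by each member in each of the 14 libraries, without Jag2 and Notch4. Notch3 takes 83.9%, 82.9% and 90.6% of receptor TPM in the d3con libraries, and Dll3 takes over 84% of ligand TPM in replicate 2 of d3con and of d3ko.

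Other marker lists moved along with these genes. The summed TPM of 6 primitive streak and axial mesoderm markers was 290.29 to 403.13 in d3con and 5.72 to 6.27 in d0con, and that of 6 presomitic mesoderm markers was 13.16 to 36.17 in d3con and 2.63 to 4.72 in d0con. Of these 6, Msgn1 and Ripply2 were at 0 in every d0con and every d3con library. They were the only 2 of the 6 under 1 TPM in all d3con libraries, where 5 of the 6 were so in d0con. In d3con replicate 2, where Dll3 was highest, the presomitic sum was 36.17, against 13.16 and 13.21 in replicates 1 and 3. The 2 did not run together in d3ko. There the sum was 56.81, 62.68 and 20.31 in replicates 1, 2 and 3, with Dll3 at 7.49, 87.98 and 12.29 TPM. The 7 feeder fibroblast markers summed to 304.31, 52.71 and 216.27 TPM in d3con and to 11.8 and 14.23 TPM in d0con. The part of these markers in the results was not tested. In sorted bulk samples, fewer cells that express a gene and less RNA per cell cannot be told apart.

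The same question was asked of cells without Foxa2. In d3ko against d0ko, 4 of 9 members were called higher (Dll1, Dll3, Notch3 and Hes1) and 0 lower, where 11.6% of all genes tested were called higher and 5.72% lower. Hey2 was again tested only through its day 3 level. The median log2 fold change of the other 8 was 1.47, beside 0.07 over all genes. Hes1 stood at 11.97 and 11.65 TPM in d0ko and at 47.92, 82.63 and 30.44 TPM in d3ko, all 3 above day 0 (log2 fold change 2.0 ± 0.38, edgeR adjusted p = 0.00628). Notch3 stood at 8.89 and 11.01 TPM in d0ko and at 44.56, 68.53 and 21.87 TPM in d3ko (log2 fold change 2.01 ± 0.40, edgeR adjusted p = 0.00756). Both were highest in replicate 2 and lowest in replicate 3. Neither call held without d0ko replicate 1 or d0ko replicate 2, with adjusted p-values of 0.0608 and 0.0571 for Hes1 and of 0.0799 and 0.0521 for Notch3.

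Both called ligands were uneven between the mutant libraries. Dll3 stood at 2.95 and 3 TPM in d0ko and at 7.49, 87.98 and 12.29 TPM in d3ko, so that replicate 2 carried most of the difference (log2 fold change 3.40 ± 1.06, edgeR adjusted p = 0.0390). Without d3ko replicate 2 the log2 fold change was 1.58 (adjusted p = 0.0549), and without d0ko replicate 1 or d0ko replicate 2 the adjusted p was 0.192 or 0.177. The call was also lost with only d0ko and d3ko fitted (0.0962) and with limma (0.0623). Dll1 stood at 1.76 and 2.13 TPM in d0ko and at 3.35, 7.6 and 14.81 TPM in d3ko, where replicate 3 was highest. Its log2 fold change was 1.97 ± 0.56 (edgeR adjusted p = 0.0269). Without d0ko replicate 1 or d0ko replicate 2 the adjusted p was 0.169 or 0.121, and with only d0ko and d3ko fitted it was 0.0833. With the clone as a block, which pairs day 0 and day 3 libraries of the same clone, the Dll1 call was lost (1.95, adjusted p = 0.0511). With the replicate number as a block, Notch2 joined the calls (1.21, adjusted p = 0.00653).

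The other members were not called in the mutant. Hey1 stood at 2.96 and 3.91 TPM in d0ko and at 6.18, 10.55 and 2.2 TPM in d3ko, so that replicate 3 was below both day 0 libraries (log2 fold change 0.70 ± 0.53, edgeR adjusted p = 0.341). Without d3ko replicate 3 it was called (1.11, adjusted p = 0.0325). Hey2 had a log2 fold change of 1.29 ± 0.57 (edgeR adjusted p = 0.114). Notch2 had 0.96 ± 0.40 (edgeR adjusted p = 0.0952) and was called without d3ko replicate 3 (1.25, adjusted p = 0.0220). Notch1 had 0.64 ± 0.29 (edgeR adjusted p = 0.121) and Jag1 had 0.02 ± 0.33 (edgeR adjusted p = 0.964).

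Whether the change over time differed between genotypes was tested by the interaction of genotype and day. It called 0 of 9 members and 0 of 13899 genes, that is 0% higher and 0% lower, with edgeR. At an unadjusted p under 0.05 there were 1840 genes, and DESeq2 called 566 genes, none of them a member. Hey1 came nearest, with a log2 difference of -2.39 ± 0.75 (edgeR adjusted p = 0.233), and was the only member with an unadjusted p under 0.05 (0.0105). Hes1 had -1.0 ± 0.51 (edgeR adjusted p = 0.438), Notch3 -0.86 ± 0.53 (adjusted p = 0.527) and Notch1 0.76 ± 0.40 (adjusted p = 0.458). Without d3ko replicate 2, Hes1 (-1.44, adjusted p = 0.0436) and Hey1 (-2.97, adjusted p = 0.0246) were called. With all libraries, Foxa2 itself was not called by the interaction either (-7.68 ± 0.87, edgeR adjusted p = 0.0544). A missing call in this test therefore does not show that a gene changed alike in both genotypes. No member was shown to change differently over time in the mutant, and none was shown to change alike.

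Mutant and control cells were next set against each other at day 3. This comparison shares the d3con and d3ko libraries with the comparisons above. Of 9 members tested, 1 was called higher (Notch1) and 2 lower (Hes1 and Hey1), where 4.75% of all genes were called higher and 3.51% lower. The median log2 fold change of the members was -0.47, beside 0.02 over all genes.

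Hey1 had the largest difference. Its libraries held 23.29, 23.42 and 34.1 TPM in d3con and 6.18, 10.55 and 2.2 TPM in d3ko. The highest mutant library lay well under the lowest control library, and the log2 fold change was -2.10 ± 0.47 (edgeR adjusted p = 0.0257). Hes1 held 138.94, 133.9 and 111.26 TPM in d3con and 47.92, 82.63 and 30.44 TPM in d3ko. These groups did not overlap either, with a log2 fold change of -1.27 ± 0.32 (edgeR adjusted p = 0.0356). In the mutant Hes1 still exceeded its day 0 level in each library. Hey2 held 1.34, 2.51 and 3.52 TPM in d3con and 0.78, 1.91 and 0.88 TPM in d3ko, which overlap, and was not called (-1.04 ± 0.48, edgeR adjusted p = 0.195).

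Notch1 went the other way. It held 3.43, 6.25 and 3.06 TPM in d3con and 9.8, 10.91 and 8.83 TPM in d3ko, with every mutant library above every control library (log2 fold change 1.21 ± 0.26, edgeR adjusted p = 0.0216). At day 0 its log2 fold change between the genotypes was 0.45 ± 0.31, which was not called. The interaction of genotype and day did not call Notch1 either. Notch3 held 58.08, 85.35 and 80.37 TPM in d3con and 44.56, 68.53 and 21.87 TPM in d3ko, which overlap (-0.73 ± 0.33, edgeR adjusted p = 0.190), and Notch2 had -0.47 ± 0.34 (edgeR adjusted p = 0.414). Notch1 made up 16.2%, 12.4% and 25.9% of the summed receptor TPM in d3ko, each above its share in any d3con library.

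In d3ko the receptors ranked as Notch3 with 44.99 TPM ± 23.3 (SD, n = 3), Notch1 with 9.85 ± 1.04 and Notch2 with 5.91 ± 2.44, with no overlap. Notch1 thus stood above Notch2 in each d3ko library, as it did in each library of d0con, d0ko, d2-FVFn and d2-FVFp. Only in d3con was Notch2 above Notch1.

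No ligand was called between the genotypes at day 3. Dll3 ranged from 7.49 to 87.98 TPM in d3ko and from 15.46 to 52.22 TPM in d3con, and its log2 fold change was 0.30 ± 0.81 (edgeR adjusted p = 0.848). Without d3ko replicate 2 it was -1.53 (adjusted p = 0.0507). Dll1 had 1.05 ± 0.46 (edgeR adjusted p = 0.176), with 14.81 TPM in d3ko replicate 3 above the rest. The libraries of Dll3, Dll1 and Jag1 overlapped along their order in d3ko. Jag1 had 0.01 ± 0.29 (edgeR adjusted p = 0.987).

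The 3 calls rested on the whole set of libraries. The log2 fold changes kept their sign in all 14 alternatives, between -2.68 and -1.69 for Hey1, -1.71 and -0.99 for Hes1 and 1.0 and 1.57 for Notch1. The Hes1 call was lost without d3con replicates 1, 2 or 3 or d3ko replicates 1 or 3, with adjusted p-values of 0.115, 0.0599, 0.0856, 0.106 and 0.0685. The Hey1 call was lost without d3con replicate 1 (0.0750), d3con replicate 3 (0.0997) or d3ko replicate 1 (0.0787), and the Notch1 call without the same 3 libraries (0.0882, 0.0783 and 0.0623). Without d3ko replicate 2 the lower calls became 4, with Notch3 (-1.14, adjusted p = 0.0211) and Hey2 (-1.53, adjusted p = 0.0429) added. None of the 3 passed when only d3con and d3ko were fitted (adjusted p = 0.109 for Hes1, 0.0878 for Hey1 and 0.0771 for Notch1), or with replicates 1 and 3 summed as 1 sample of their clone (0.174, 0.129 and 0.149), or without the 75-base libraries (0.260, 0.188 and 0.193). DESeq2 kept all 3.

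**Figure D3:**
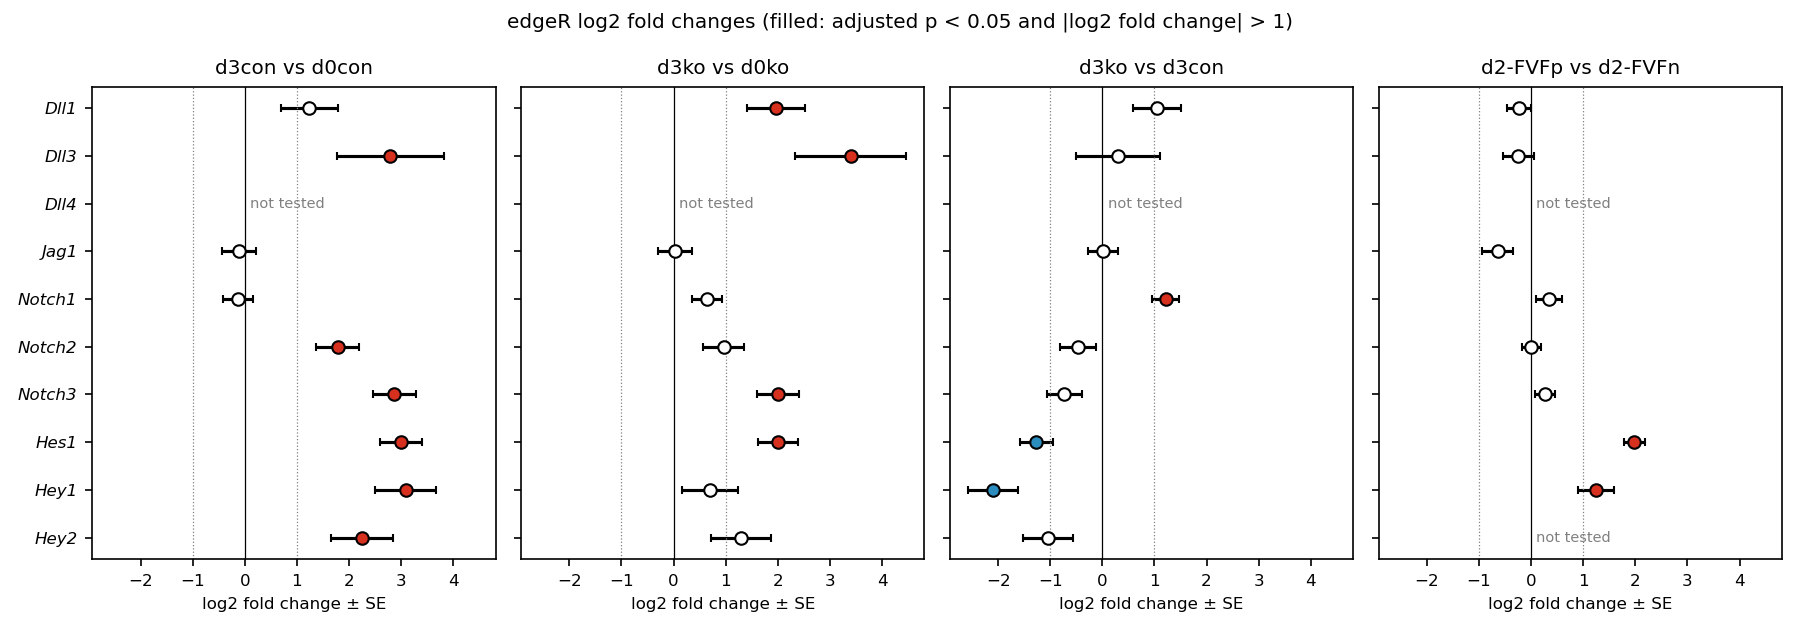
Log2 fold change ± SE of each tested member in 4 comparisons (1 panel each), as fitted by edgeR; filled points were called (adjusted p under 0.05 and a size over 1). Hes1, Hey1 and Notch3 lie between 2.87 and 3.09 in d3con against d0con, and Hes1 and Hey1 are the called members on the lower side in d3ko against d3con.

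The markers of other cell types also differed between these groups. The pluripotency sum was higher in each d3ko library than in any d3con library, and the presomitic sum was 56.81, 62.68 and 20.31 TPM in d3ko. The endothelium list of 6 genes summed to 42.75 to 86.48 TPM in d3ko and 9.85 to 11.44 TPM in d3con. Emcn was at 0 in all of these libraries. At day 0 the list summed to 32.78 to 63.07 TPM. In d0con, and also in d0ko, 4 of the 6 were under 1 TPM in every library, so the remaining genes carried that sum. Streak and axial mesoderm markers summed to 161.18, 434.82 and 110.33 TPM in d3ko. Early neural markers stayed at 3.33 to 14.26 TPM in the day 3 libraries and at 4.18 to 5.45 TPM at day 0. Feeder fibroblast markers summed to 287.9, 117.26 and 365.73 TPM in d3ko. The part of these markers in the differences of Hes1, Hey1 and Notch1 was not tested.

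Before differentiation the genotypes were compared as d0ko against d0con. No member was called (0 of 9), and 0% of all genes were called higher and 0% lower. With edgeR 195 genes had an unadjusted p under 0.05, 0 of them members, and DESeq2 called 1 gene, which was no member. Log2 fold changes ran from -0.31 for Dll3 to 0.45 for Notch1, each with an edgeR adjusted p of 1. Their median was 0.13, beside 0.02 over all genes. In TPM, the d0ko libraries of Notch1 (5 and 6.31 in d0ko, 4.34 and 3.7 in d0con), Notch2 and Dll1 lay above the controls without overlap. Those of Dll3 lay below them, and those of the other members overlapped. With 2 libraries per group such separation can easily arise without a difference, and its share over all genes was not counted. Feeder markers summed to 37.44 and 135.25 TPM in d0ko.

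The doxycycline line asks what induced Foxa2 does in ESCs that were not differentiated. In d2-FVFp against d2-FVFn, 2 of 8 members tested were called higher (Hes1 and Hey1) and 0 lower, where 6.96% of the 12943 genes tested were called higher and 1.47% lower. The median log2 fold change was 0.13, beside 0.01 over all genes. Hes1 stood at 9.43 and 8.88 TPM in d2-FVFn and at 34.13 and 40.3 TPM in d2-FVFp. The groups lay far apart, with a log2 fold change of 1.98 ± 0.20 (edgeR adjusted p = 0.00213), and the call held in all 9 alternatives (1.87 to 2.11). Hey1 stood at 3.12 and 2.97 TPM in d2-FVFn and at 9.5 and 5.42 TPM in d2-FVFp, without overlap (1.24 ± 0.34, edgeR adjusted p = 0.0483). The Hey1 call was lost without d2-FVFn replicate 1 (1.30, adjusted p = 0.174), d2-FVFn replicate 2 (1.22, adjusted p = 0.191) or d2-FVFp replicate 1 (0.80, adjusted p = 0.199).

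Ligands and receptors were not called in this line. Jag1 was lower in both Venus-positive libraries, at 1.48 and 2.25 TPM against 2.53 and 3.12 TPM (-0.64 ± 0.30, edgeR adjusted p = 0.180). Notch1 had a log2 fold change of 0.34 ± 0.25 (adjusted p = 0.370), Notch3 0.26 ± 0.18 (adjusted p = 0.356), Dll1 -0.23 ± 0.23 (adjusted p = 0.531), Dll3 -0.24 ± 0.29 (adjusted p = 0.598) and Notch2 0.00 ± 0.18 (adjusted p = 0.990). Hey2 was too low to be tested, with 7, 4, 0 and 12 expected counts. In d2-FVFn the order among the member ligands was Dll3 with 7.28 TPM, Dll1 with 6.64 and Jag1 with 2.83, the first pair overlapping, and among receptors Notch3 with 10.3, Notch1 with 4.52 and Notch2 with 3.57. This order of members was the same in d2-FVFp, with Hes1 at 37.2 TPM ± 4.36 (SD, n = 2), Hey1 at 7.46 ± 2.89 and Notch3 at 12.8 ± 2.51. Jag2, no member, stood at 7.23 TPM ± 0.438 in d2-FVFn and at 10.7 TPM ± 0.735 in d2-FVFp. Pluripotency markers summed to 6384.74 and 7908.22 TPM in d2-FVFn and to 4231.7 and 5757.74 TPM in d2-FVFp. Endoderm markers summed to 6.86 and 8.18 TPM and to 12.94 and 18.73 TPM. Their part in the results was not tested.

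The other genes of the pathway were read as a list of 50, all present in the tables, of which 45 could be tested at day 0 and day 3. In d3con against d0con 8 were called higher and 9 lower, beside 20.6% and 14.6% of all genes. Aph1b, Aph1c, Maml3 and Neurl1b, which was not called, were under the filter in both d0con libraries, as was Hes3 in all d3con libraries. Such genes were tested only through the group where they were high. Over the 40 genes without this limit, 5 were called higher and 8 lower, with a median log2 fold change of 0.08. The higher genes included 5 of the 10 for receptor cleavage (Furin, Adam10, Psen2, Aph1b and Aph1c), with Maml3, Dtx3 and Nrarp. The lower ones were the ligand Jag2, the receptor Notch4, the glycosylation enzymes Mfng, Rfng and Poglut1, the ubiquitin ligase Mib2, Rbpj, the corepressor subunit Hdac1 and Hes3. Rbpj, the DNA-binding partner of all 4 receptors, had a log2 fold change of -1.48 ± 0.20 (edgeR adjusted p = 0.000591). Maml3, a Mastermind coactivator, stood at 0.01 and 0.05 TPM in d0con and at 7.72 to 9.91 TPM in d3con (edgeR adjusted p = 0.000335). Hes3, a relative of Hes1 known from neural progenitors, stood at 3.01 and 3.76 TPM in d0con and at 0 to 0.05 TPM in d3con (edgeR adjusted p = 0.000628). No fold is given for either because the lower group held so few counts.

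In d3ko against d0ko 7 of the 45 were called higher (Dlk1, Furin, Aph1b, Aph1c, Maml3, Dtx3 and Nrarp) and 2 lower (Rbpj and Hes3), beside 11.6% and 5.72% of all genes. Dlk1, Aph1c, Maml3, Hes3 and Neurl1b, which was not called, had the limit just named. Over the 40 genes without it 4 were called higher and 1 lower, with a median of 0.22. Nrarp, a feedback inhibitor and target of the pathway, had a log2 fold change of 1.86 ± 0.46 in control cells (edgeR adjusted p = 0.00858) and of 2.11 ± 0.46 in the mutant (edgeR adjusted p = 0.0105). Between the genotypes at day 3 it had -0.07 ± 0.38 (edgeR adjusted p = 0.929). In d3ko against d3con 1 of 45 was called higher and 1 lower, beside 4.75% and 3.51% of all genes, with a median of -0.04. Notch4, a receptor known from endothelium, stood at 1.20 to 2.86 TPM in d3ko and 0.33 to 0.71 TPM in d3con (1.88 ± 0.42, edgeR adjusted p = 0.0255), a call kept in 5 of 14 alternatives. It was lost without d3con replicate 1 (0.0988), d3con replicate 3 (0.104), d3ko replicate 1 (0.0550) or d3ko replicate 3 (0.0704), given as adjusted p. Aph1c, a gamma-secretase subunit, stood at 0.87 to 1.63 TPM in d3ko and 2.83 to 3.83 TPM in d3con (-1.40 ± 0.37, edgeR adjusted p = 0.0447), a call kept in 3 of 14. It was lost without any library but d3ko replicate 2, with adjusted p-values of 0.0871 to 0.124. Aph1b and Aph1c are close copies, so how reads were split between them is uncertain. At day 0, and for the interaction, 0 of 45 were called.

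In the doxycycline line 3 of 44 were called higher and 0 lower, a share near the 6.96% of all genes called higher, beside 1.47% called lower. Maml3 and Dner, which was not called, were tested only through d2-FVFp. Over the 42 genes without this limit, 2 were called higher, with a median of 0.12. Furin, the protease that cuts the receptors on their way to the surface, went from 2.16 TPM ± 0.537 to 9.90 TPM ± 0.0495 (n = 2 each). Its log2 fold change was 2.14 ± 0.24 (edgeR adjusted p = 0.00277). Adam10, which makes the cut that follows ligand binding, went from 9.57 ± 0.608 to 25.6 ± 7.20 (1.37 ± 0.22, edgeR adjusted p = 0.00871), a call lost without d2-FVFn replicate 1 (adjusted p = 0.0560). Maml3 held 5 and 18 expected counts in d2-FVFn and 63 and 101 in d2-FVFp (edgeR adjusted p = 0.0119), and no fold is given for it. Without either d2-FVFp library it was too low to be tested.

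**Figure D4:**
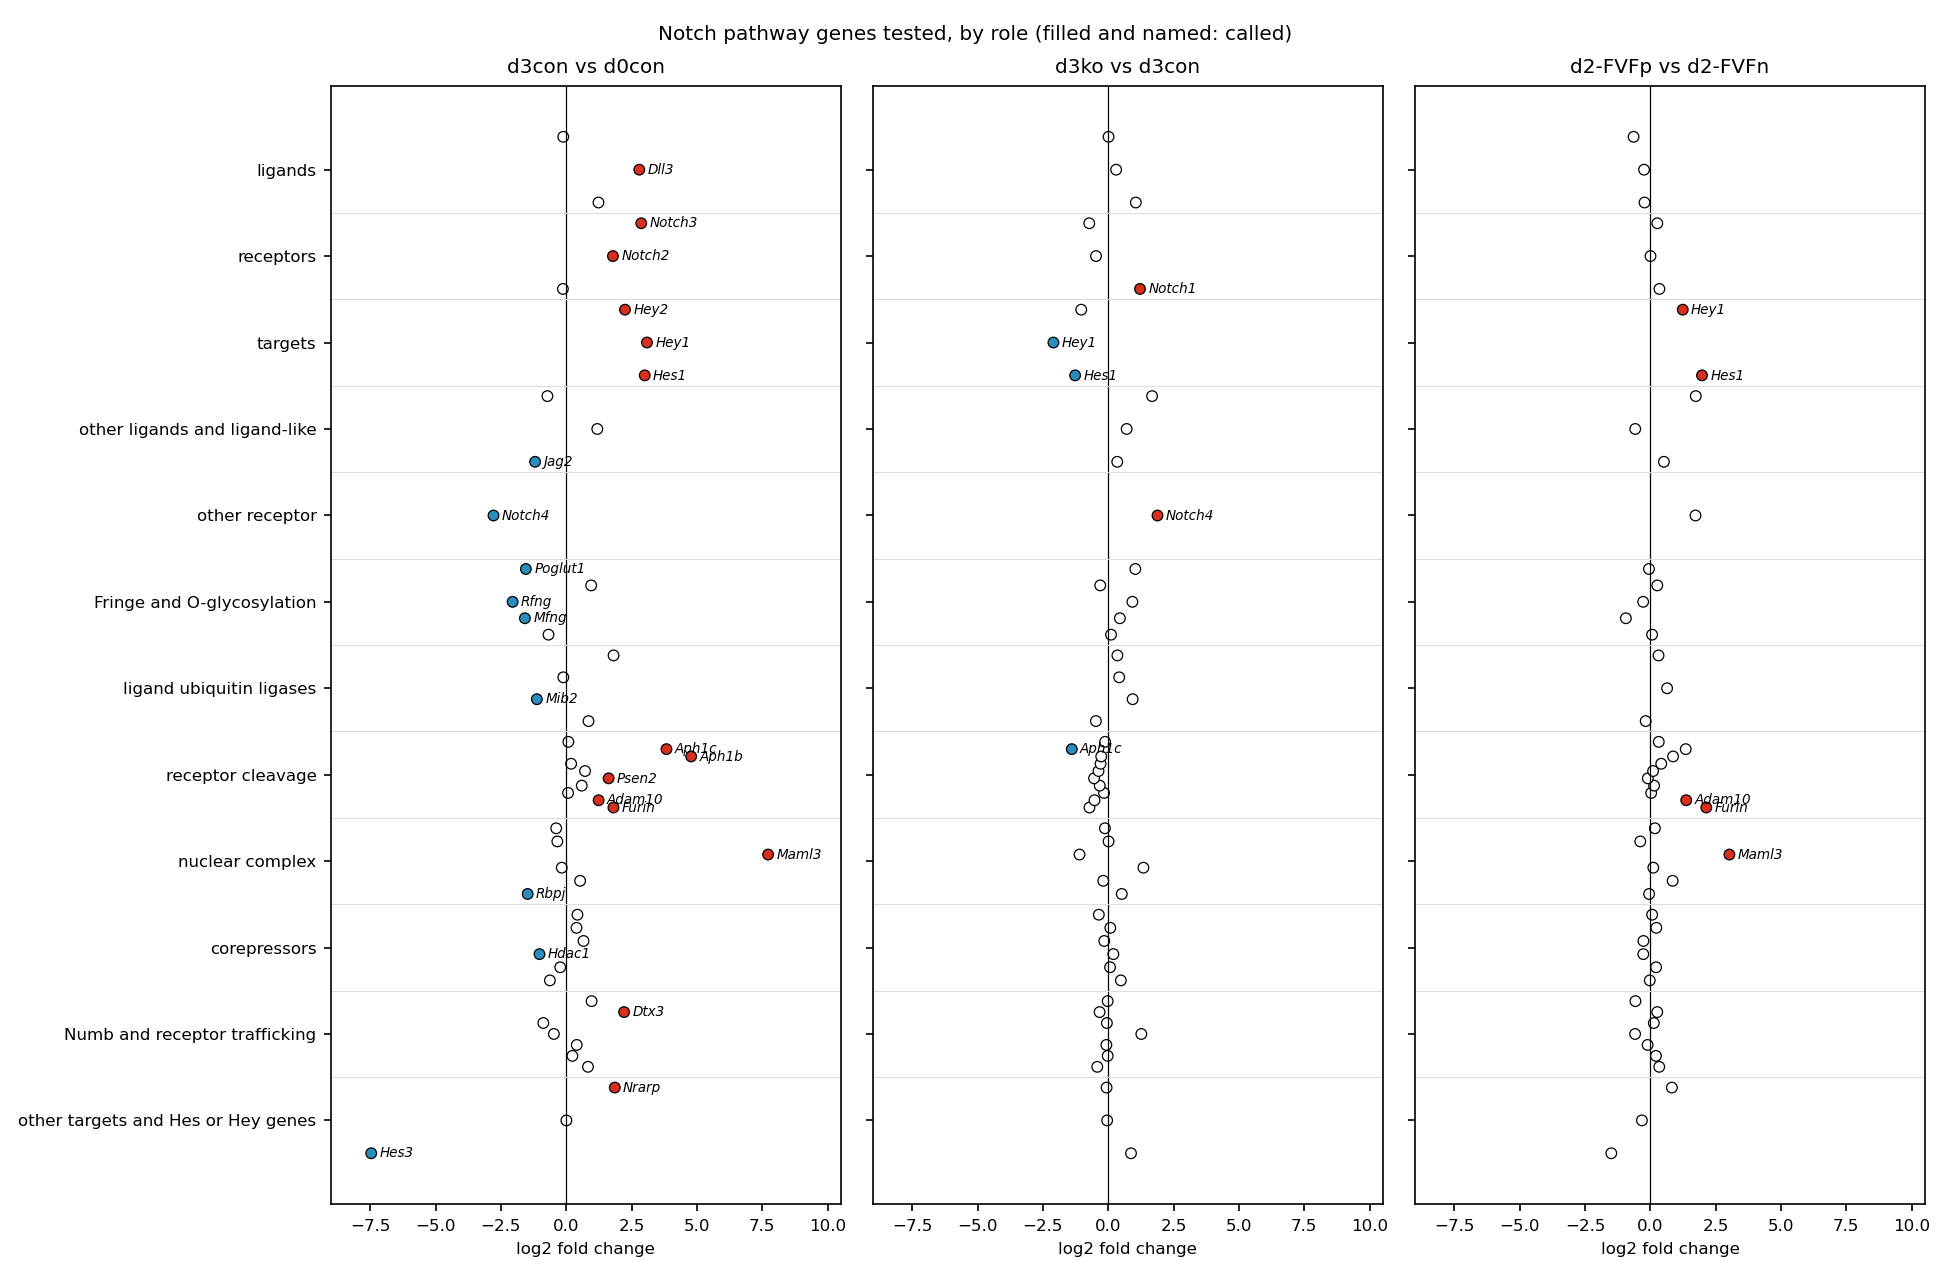
Log2 fold change of each tested Notch pathway gene, in rows by role, for d3con against d0con, d3ko against d3con and d2-FVFp against d2-FVFn; filled points (red higher, blue lower) are called genes, named beside the point, and the first 3 rows are the members. Receptor cleavage genes all lie at or right of 0 in d3con against d0con. There 5 of 10 are called higher, beside 20.6% of all genes. Of these, Aph1b and Aph1c were tested only through their day 3 level and so had to come out higher. In d3ko against d3con 1 of the 10 is called lower, beside 3.51% of all genes.

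The genes whose levels ran most like those of a member over the 14 libraries were sought by Pearson r of log2(TPM + 1) among 11101 genes with a mean of at least 5 TPM in some group. These values are descriptions, since libraries share groups and clones. For Notch3 they were Lhx1 (0.990), Sema3f (0.985) and Ulk2 (0.984), and for Hes1 Gata6 (0.984), Maml3 (0.978) and Rsph3b (0.978). Hey1 was nearest to Zfp579 (0.965), Rab37 (0.962) and Flt1 (0.956), Notch2 to Htt (0.973), Soga1 (0.960) and Smurf2 (0.958), and Dll3 to Eif1b (0.955), Ppp4r4 (0.955) and Irgm2 (0.949). Notch1 was nearest to Des (0.897), Aff1 (0.893) and Fn1 (0.878), Dll1 to Prc1 (0.934), Mtch2 (0.923) and Hmmr (0.918), and Jag1 to Vcpkmt (0.906), Tatdn3 (0.885) and Ndufs8 (0.873). Among the 8 members that reached 5 TPM in some group, the closest pairs over the 14 libraries were Notch3 with Hes1 (0.916), Notch2 with Notch3 (0.908) and Hes1 with Hey1 (0.888).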

How the data were processed

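Total RNA of sorted cells was converted to cDNA with a low-input kit that does not mark the strand and sequenced as single reads. The authors aligned the reads to mm10 (GRCm38) with STAR and quantified each library with RSEM, as the processing notes of the submitters name them; versions are not given in the sources used here. The deposited expected counts estimate the reads of each gene, unscaled. The deposited TPM values were scaled by the authors' RSEM run for gene length and library total.

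Expected counts were rounded. Genes with at least 1 CPM in at least 2 libraries of a fit were scaled by TMM and tested with the quasi-likelihood F test of edgeR 4.0.16 (R 4.3.3), with Benjamini-Hochberg adjustment over all genes tested. The 10 day 0 and day 3 libraries were fitted together (13899 genes) and the 4 doxycycline libraries apart (12943 genes). A call needed an adjusted p under 0.05 and a log2 fold change over 1 in size. The SE was obtained as the absolute log2 fold change over the root of F. The scripts were tested on simulated data in which 200 genes were changed 4-fold. Of these, 63% were recovered for d3ko against d3con, 68% for d3con against d0con and 89% for the doxycycline line. False calls were 3, 7 and 7. A gene that was not called may therefore still differ. Far fewer genes were changed than the 4890 called in d3con against d0con, and the simulated libraries shared no clones. The recovery and the false calls in the data may thus be different. Groups and replicate numbers came from sample titles; clones came from the file names and the study's sample list. Same-numbered day 0 and day 3 libraries share a clone, so day 3 was also fitted against day 0 with the replicate number or the clone as a block, although their deviations from the group means correlated only at -0.04 to 0.06 across genes. Other alternatives were DESeq2 1.42.0, median-of-ratios scaling, no filter, only the 2 groups compared, limma 3.58.1 on log2(TPM + 1), replicates 1 and 3 summed, leaving out each library, and, chosen after seeing the data, leaving out the 75-base libraries.

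The 10 members, the 50 other pathway genes and the marker lists were chosen with earlier results of these data known. All members are named; other pathway genes are named when called in d3ko against d3con or in the doxycycline line, or as the 2 largest called changes of another comparison. The other called pathway genes, Dner and Neurl1b are named without values, outside this rule. Rbpj, Nrarp and Jag2 are named with values, after these values were seen. Promoter windows came from RefSeq (GRCm38.p6); windows of Hes1 and Hey1 and protein sequences were not used here.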

Additional observations from a re-analysis of the deposited data

How the results depend on the processing

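Directions held for the 15 called values of members: over 190 refits 147 kept the call, 43 lost it and 0 changed sign. The number of members called higher in d3con against d0con ran from 3 to 6 when libraries were left out in turn. In d3ko against d0ko it was 2 with only these groups fitted and 0 to 6 with libraries left out. In d3ko against d3con members called higher were 0 with only these groups fitted, 0 with replicates 1 and 3 summed, 0 without the 75-base libraries and 0 to 1 with libraries left out. Those called lower were 0, 0 and 0 in these refits and 0 to 4 with libraries left out. Interaction calls on the lower side ran from 0 to 2 and doxycycline calls from 1 to 2. The causes were not tested.

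With the replicate number as a block, 3 members stayed called in d3ko against d3con (Hes1 -1.34, Hey1 -2.30 and Notch1 1.26). Same-numbered libraries of d3con and d3ko come from different clones, and their deviations correlated at r of 0.55, 0.30 and -0.01. The replicate 1 pair, with r of 0.55, also shares the 75-base reads. Day 0 genotypes (0.16) and the doxycycline pairs (0.27) were matched by number as well, and there the block changed no member's call. In d3ko against d0ko the block by number gave 5 calls and by clone 3, where the text above gives the genes. It changed no other call.

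The 29 changes of sign all concerned values that were not called. In d3con against d0con limma gave 0.0198 for Jag1 and 0.0175 for Notch1, and Notch1 was 0.0057 without the 75-base libraries. In d3ko against d3con Dll3 was -0.0721 with the block and -0.27 with limma, and Jag1 was -0.0051 with no filter and -0.0326 with replicates summed. Limma gave -0.0693 for the Dll3 interaction, and Notch2 in the doxycycline line was -0.0072 with no filter. With libraries left out, Jag1 ran from -0.32 to 0.16 and Notch1 from -0.48 to 0.0865 in d3con against d0con, Jag1 from -0.14 to 0.20 in d3ko against d0ko, and Dll3 from -1.53 to 1.02 and Jag1 from -0.26 to 0.23 in d3ko against d3con. At day 0 Jag1 ran from -0.30 to 0.0277, Notch3 from -0.0078 to 0.27 and Hey2 from -0.27 to 0.13. For the interaction Dll3 ran from -1.22 to 1.32 and Jag1 from -0.13 to 0.36. In the doxycycline line Dll3 ran from -0.59 to 0.0709, Notch1 from -0.0419 to 0.68 and Notch2 from -0.0657 to 0.10. Where a library left out leaves 1 sample in a group, that sample is assumed to vary like the others. Depth limits Dll4 in all libraries and Hey2 in the doxycycline line. Each group has 2 or 3 libraries, and each genotype 2 clones.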
